A study of Mus musculus with 2 samples.

Results

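Transcripts of 9 pro- and anti-inflammatory cytokines were read on 2 Agilent 1-colour mouse arrays, 1 for blood after heat and 1 for control blood. The cytokines were Tnf, Il1a, Il6, Il12b, Osm, Il10, Il1rn, Tgfb1 and Vegfa, matched by name. Their probes were all probes outside the controls whose gene name in the array files equals the symbol, which gave 17 of 56605 probes and 9 of 37074 gene names. The labels describe heat as a water bath of 37 °C for 1 h followed by 38.5 °C for another 1 h, and the study asked which genes this affects in mouse blood. No temperature or time was given for the control, nor the strain, sex or age of either sample, and the labels leave unstated whether animals or drawn blood were heated. The protocols shared by both samples lyse red and white cells differentially, deplete globin transcripts and label 0.5 µg of RNA with the dye Cy3. The labels speak of 3 replicates, but each group held 1 array here, so there is no replicate error, no test and no p-value in what follows, and the heat itself cannot be told apart from its pretreatment or from handling.

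Cytokines are secreted proteins that carry signals between cells of the immune system. TNF, IL-1α, IL-6 and the IL-12 p40 chain encoded by Il12b drive inflammation, and in blood monocytes and macrophages are a main source of them once pattern recognition receptors switch on NF-kB. IL-10, the IL-1 receptor antagonist encoded by Il1rn and TGF-β1 restrain that response, oncostatin M (Osm) is an IL-6 family cytokine, and VEGF-A makes vessels grow and leak. Many of these messages are short-lived, because proteins that bind AU-rich stretches lead them to decay.

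Each array value comes from a 60-base probe, and 4 probes that lie in coding sequence are shown because they define what was read for 3 cytokines with unequal probes. Lengths and coordinates are those of the array files, with mm9 as the build. Vegfa probe 2 (A_55_P2741794) maps to chr17:46159226-46159282 on the minus strand, a span of 57 bases for 60 bases of probe. Its lysine- and arginine-rich coding stretch belongs to a heparin-binding part that only some of the longer VEGF-A isoforms carry and the shortest lacks. Tgfb1 probe 1 (A_66_P135688) maps to chr7:26477408-26477467 and Tgfb1 probe 2 (A_51_P390715) to chr7:26489877-26489936, both plus. Osm probe 1 (A_52_P348614) maps to chr11:4139500-4139559, plus.
Vegfa probe 2: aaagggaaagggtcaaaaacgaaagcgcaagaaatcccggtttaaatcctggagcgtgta
Tgfb1 probe 1: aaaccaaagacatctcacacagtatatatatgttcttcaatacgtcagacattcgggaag
Tgfb1 probe 2: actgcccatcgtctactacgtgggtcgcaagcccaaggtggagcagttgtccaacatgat
Osm probe 1: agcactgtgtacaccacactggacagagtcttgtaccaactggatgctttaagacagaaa

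The promoters of 3 inflammatory cytokines are shown because one of them, Tnf, was read well above background and the others, Il6 and Il12b, were not. RefSeq promoter windows of the GRCm38.p6 assembly were at hand for 7 of the 9 cytokines, as 10 windows, and Il10 and Osm had no entry. Each run below is the 250 bases before the annotated start, 5′ to 3′ on the gene's strand. Capitals mark matches to GGGNNNNNCC (an NF-kB motif), TATAAA (the TATA box) and GAANNTTC (paired heat shock element units, head to head).
Tnf, chr17:35202008-35202257, minus strand: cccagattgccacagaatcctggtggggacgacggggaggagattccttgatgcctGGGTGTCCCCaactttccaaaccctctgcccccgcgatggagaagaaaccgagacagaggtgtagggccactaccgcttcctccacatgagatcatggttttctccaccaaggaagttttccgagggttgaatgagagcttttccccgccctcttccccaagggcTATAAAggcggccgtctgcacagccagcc
Il6, chr5:30012864-30013113, plus strand: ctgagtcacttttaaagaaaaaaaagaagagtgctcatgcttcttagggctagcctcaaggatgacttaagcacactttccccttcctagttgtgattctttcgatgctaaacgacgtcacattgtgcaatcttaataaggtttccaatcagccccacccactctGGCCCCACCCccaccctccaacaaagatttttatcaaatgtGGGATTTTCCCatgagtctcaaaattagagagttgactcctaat
Il12b, chr11:44399813-44400062, plus strand: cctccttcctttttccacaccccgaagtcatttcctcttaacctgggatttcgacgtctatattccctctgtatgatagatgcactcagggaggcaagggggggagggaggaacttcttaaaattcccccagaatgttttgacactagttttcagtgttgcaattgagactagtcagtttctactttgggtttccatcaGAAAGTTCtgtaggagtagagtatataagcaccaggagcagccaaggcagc

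The Tnf window held GGGNNNNNCC on both strands at 194 to 185 bases upstream and TATAAA at 29 to 24 bases upstream. The Il6 window held GGGNNNNNCC at 85 to 76, at 44 to 35 and, overlapping the latter on the other strand, at 43 to 34 bases upstream. The Il12b window held GAANNTTC at 51 to 44 bases upstream. All motifs were searched on both strands. GGGNNNNNCC lay in 6 of the 10 cytokine windows and in 45.8% of all 32851 promoter windows of that length. GAANNTTC lay in 1 of the 10 and in 6.69% of all, and the tail-to-tail form TTCNNGAA in 0 of the 10 and in 7.17% of all. TATAAA lay in 2 of the 10, those of Tnf and Il1a, and in 12.4% of all. These matches describe letters only.

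Across the whole arrays, 30471 probes were well above background after heat and 29460 in the control, and no spot was saturated. Values below are the processed signal of the scanner software in intensity units, and a difference is the log2 value after heat minus that in the control, once each array was divided by its 75th percentile signal, 604 after heat and 620 in the control. This scaling adds 0.04 to every unscaled log2 difference. The software's error for a spot, about 10% of the signal at bright probes, is its own estimate for the reading of 1 spot and covers no biological spread. At 283 probes printed at replicate spots, the spots' log2 differences had a standard deviation of 0.081 around their probe's mean. That is a spread within these arrays only and covers no biological spread either. All 10 listed monocyte and macrophage genes were well above background on both arrays, as were all 8 listed genes of dividing cells, although most circulating blood cells do not divide. Of the other blood lists, 6 of 9 neutrophil, 7 of 10 T cell, 2 of 7 B cell, 2 of 8 NK cell, 2 of 8 mast cell, basophil and eosinophil, 3 of 8 red cell and 2 of 6 platelet genes were well above background on both. The B cell genes Cd79a and Ms4a1, the red cell genes Hbb-b1 and Alas2 and the platelet genes Itga2b and Gp9 were well above background on neither. Cd79b, Hba-a1 and Pf4 of the same lists were well above background on both, at unlike signals. Pf4 read 11483 after heat and 9824 in the control, and Cd79b read 219 and 179. A spot of Hba-a1 read 47.8 and 56.0, near the lowest readable signals of 24.9 and 31.0.

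On both arrays, 6 of the 9 cytokines had a probe well above background: Tnf, Osm, Il10, Il1rn, Tgfb1 and Vegfa. Among all gene names, 50.1% had one. Il1a, Il6 and Il12b, each a classical product of activated macrophages, were well above background on neither array. At the level of probes, 12 of 17 were well above background on each array, and these were the same 12 probes on both, so the arrays did not differ in which cytokine messages could be read.

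**Figure D1:**
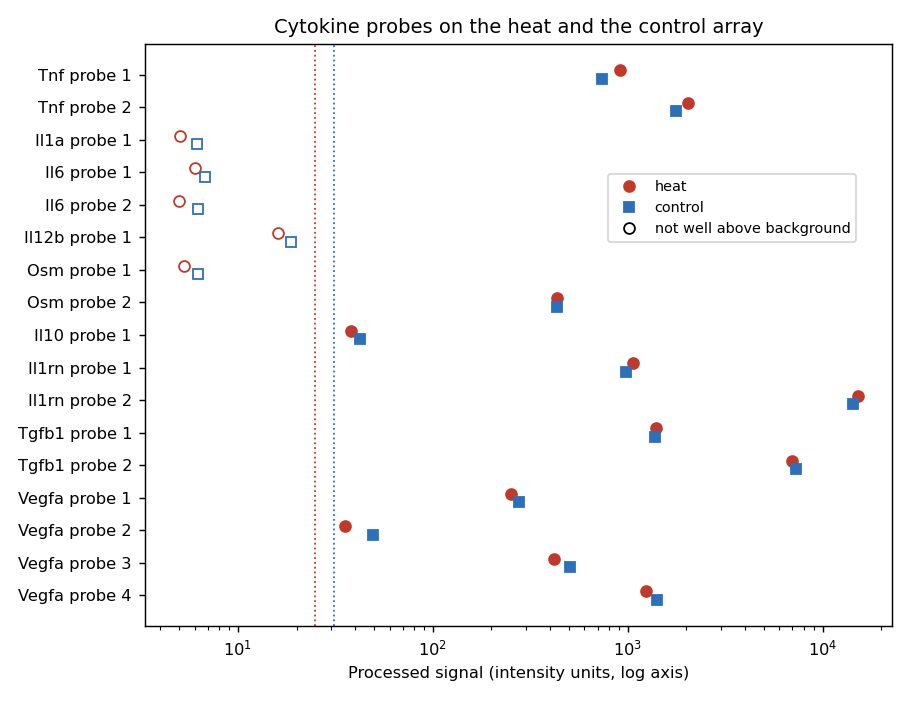
Processed signal (intensity units, log axis) of the 17 probes, with circles for heat and squares for control, open where the probe was not well above background; dotted lines mark the lowest signal of any probe well above background, 24.9 after heat and 31.0 in the control. The probes of Il1a, Il6 and Il12b and Osm probe 1 lie left of both lines, and in no row do the heat and control points lie 2-fold apart.

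Tnf, the founding member of its cytokine family and an early product of activated macrophages, was higher after heat at both of its probes. Probe 1 (chr17:35336967-35337026, minus) read 908 after heat and 741 in the control, a difference of 0.33. Probe 2 (chr17:35336795-35336854, minus) read 2033 and 1775, a difference of 0.23. Both probes thus stood higher on the heat array, with software errors of 0.20 each. Without scaling the differences were 0.293 and 0.196, the latter smaller than its software error of 0.204. The mean over the probes was 0.28, a ratio of 1.22, and 0.24 without scaling. Its software error of 0.14, like that of the other means below, takes the errors of the probes as independent. An error shared by the probes of an array would make it too small. Of all genes measured on both arrays, 14.5% lay at least as far from 0, so a difference of this size was common on these arrays. Of genes with a pair of such probes, 62.6% had the same sign at both, and Tnf and Il1rn were among them while Tgfb1 was not. In bulk RNA such as this, more cells of a type and more RNA per cell cannot be told apart. The monocyte and macrophage genes had a median scaled difference of 0.09, with 9 higher and 1 lower, where 52.2% of all genes measured were higher. Their unscaled signals, at the brightest probe of each gene, summed to 610749 after heat and 615943 in the control. These sums lack the 0.04 that scaling adds and are not on the scale of the median. Some other lists lay farther from 0, with medians of 0.14 for 7 T cell, 0.18 for 2 B cell and 0.21 for 2 platelet genes. The T cell genes were split, 4 higher and 3 lower, and ran from -0.57 to 0.35. Those of the B cell list lay at 0.03 and 0.33. The 2 NK cell genes had a median of -0.84, but only the perforin gene Prf1, at -1.68 from 1 probe, was far from 0. The other, Klrb1c, was at -0.005. The 2 mast cell, basophil and eosinophil genes had a median of -0.72, with the eotaxin receptor gene Ccr3 at -1.04 and Siglecf at -0.40. Neutrophil genes had a median of -0.02. The part of any of these lists in the Tnf difference was not tested.

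The other classical inflammatory cytokines could not be read. The Il1a probe (chr2:129125994-129126053, minus) read 5.05 after heat and 6.17 in the control. The Il6 probes read 6.05 and 6.81 (chr5:30346159-30346218, plus) and 4.97 and 6.22 (chr5:30346367-30346426, plus). The Il12b probe (chr11:44226781-44226840, plus) read 16.0 and 18.7. None of the 4 probes was well above background on either array, so no fold is given for these genes, and a difference below that limit was not detectable. At the Il1a and Il6 probes the software error was as large as the signal. Il1b, Il12a and Il23a, named here after their values were seen, were likewise well above background on neither array. IL-12 p40 pairs with the products of Il12a and Il23a to form IL-12 and IL-23, so none of the 3 chains of these cytokines was read.

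Osm, which signals through the gp130 receptor chain, gave 2 unlike probes. Probe 1, the coding probe printed above, read 5.30 after heat and 6.23 in the control and was well above background on neither. Probe 2 (chr11:4140873-4140932, plus) read 436 on each array, a scaled difference of 0.04 with a software error of 0.21. Without scaling, which moves every gene by the same 0.04, the difference was -0.0012, and the value was 0.01 with cyclic loess and -0.05 with normexp and the 75th percentile. Every one of these lies well within the software error. The probes lie 1373 bases apart both in the transcript and in the genome. Among genes with 2 or more probes and one of them well above background on both arrays, 35.2% had another probe on neither array, so such a split was frequent.

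Of the anti-inflammatory cytokines, Il10 was read near the floor. Its probe (chr1:132920943-132921002, plus) read 38.0 after heat and 42.4 in the control, against lowest readable signals of 24.9 and 31.0. The control array was the higher, by a difference of -0.12 with a software error of 0.36, which is larger than the difference. With normexp background correction and the 75th percentile the value was 0.02, so the sign turned. Il10 was therefore readable on both arrays, but no difference was detectable at this signal.

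Il1rn, the decoy ligand that occupies the IL-1 receptor without signalling, was slightly higher after heat. Probe 1 (chr2:24205094-24205153, plus) read 1071 after heat and 976 in the control, a difference of 0.17. Probe 2 (chr2:24206125-24206184, plus) read 15281 and 14293, a difference of 0.14. Both probes were higher on the heat array, and the mean was 0.15 with a software error of 0.14, or 0.12 without scaling. The mean signal of the spot at probe 1 was 968 after heat and 998 in the control, the other way round from its processed signal. Its local background was 33 and 39, and which step of the software turned the order was not tested. With normexp and the 75th percentile the scaled difference at probe 1 was 0.00, while probe 2 kept 0.12. With mean minus background signals these were 0.05 and 0.17. Of all genes, 34.7% lay at least as far from 0 as Il1rn. Messages of the agonists Il1a and Il1b were not readable beside it, so no ratio of antagonist to agonist can be given.

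Tgfb1, the chief isoform of TGF-β in blood cells, read alike on both arrays. Probe 1 read 1400 after heat and 1386 in the control, a difference of 0.05. Probe 2 read 6953 and 7303, a difference of -0.03. The probes stood on opposite sides of 0 and lie 721 bases apart in the transcript and 12469 in the genome. Their mean was 0.01 with a software error of 0.14, and -0.03 without scaling, and 94.0% of all genes lay at least as far from 0.

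Vegfa, the growth factor of vessels that hypoxia induces, was lower after heat at all 4 of its probes. Probe 1 read 253 after heat and 277 in the control, a difference of -0.09. Probe 2, in the heparin-binding coding stretch that only some isoforms carry, read 35.6 and 49.4, a difference of -0.43 with a software error of 0.34. Probe 3 (chr17:46155512-46155571, minus) read 421 and 507, a difference of -0.23. Probe 4 (chr17:46154387-46154446, minus) read 1244 and 1419, a difference of -0.15. The control array was the higher at each probe, and the mean was -0.23 with a software error of 0.12, a ratio of 0.854. Probe 2 lay farthest from 0, and with normexp and the 75th percentile it was at -0.11 and the mean at -0.13. Among genes with 4 such probes, 27.1% had one sign at all 4, and 12.7% were lower at all 4. Of all genes, 20.8% lay at least as far from 0 as Vegfa. The probes lie at different places in the messages of the gene and are not replicates, and whether isoforms differed between arrays was not tested.

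**Figure D2:**
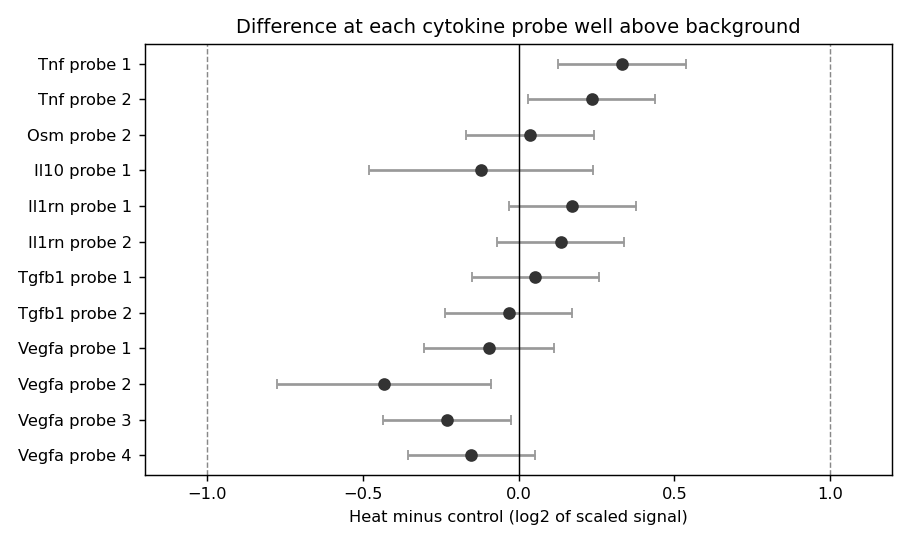
Heat minus control (log2 of scaled signal) at the 12 probes well above background, with bars of 1 software error either side and dashed lines at 2-fold. The bars of both Tnf probes lie above 0, those of Vegfa probes 2 and 3 lie below 0, and the other 8 cross it. Without scaling the bar of Tnf probe 2 would cross 0 too.

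Of the 6 cytokines read on both arrays, 4 were higher after heat and 2 lower. Over all 18562 genes measured, 52.2% were higher, a share that was 41.4% without scaling and 64.7% with mean minus background signals. The median of the 6 was 0.02 against 0.01 for all genes, whose middle 95% ran from -0.50 to 0.45. None of the 6 was 2-fold apart, where 0.663% of all genes were, and none was 1.5-fold apart, where 2.98% were. The 12 probes split evenly, with 6 higher and 6 lower.

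**Figure D3:**
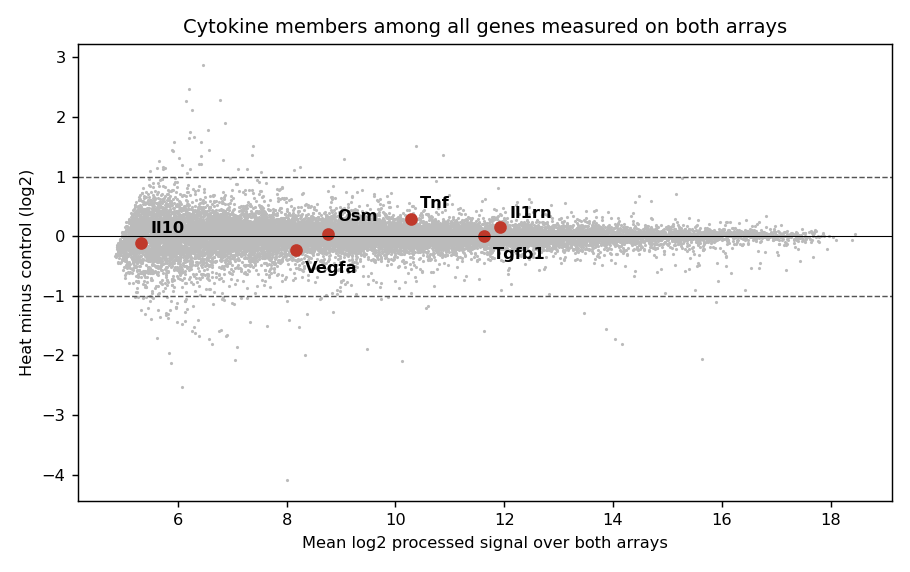
Heat minus control (log2) against the mean log2 processed signal over both arrays, with 1 grey point for each of the 18562 genes, the 6 cytokines as larger labelled points and dashed lines at 2-fold. The cytokines lie inside the cloud, Tnf at 0.28 and Vegfa at -0.23 being the farthest from 0.

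**Figure D4:**
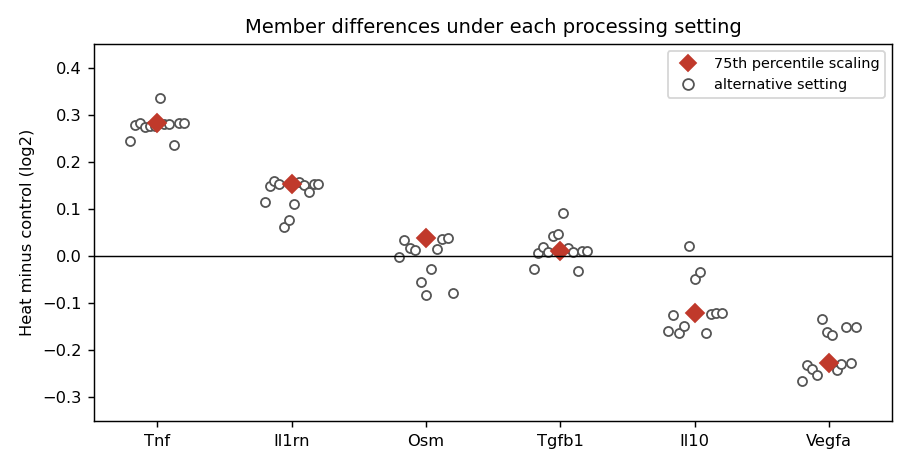
Heat minus control (log2) of each cytokine under 75th percentile scaling (diamond) and under each alternative setting (open circles). Tnf and Il1rn stay above 0 and Vegfa below 0 throughout, while points of Osm, Tgfb1 and Il10 lie on both sides.

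The plot by setting gives the range of each cytokine. Tnf lay between 0.23 and 0.34 under 12 alternatives and Il1rn between 0.06 and 0.16, both always higher after heat. Vegfa lay between -0.27 and -0.13 under 12 alternatives, always lower. Tgfb1 lay between -0.03 and 0.09 and kept its sign in 10 of 12, Il10 between -0.16 and 0.02 in 10 of 11, and Osm between -0.08 and 0.04 in 6 of 11.

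Around the cytokines, 6 lists of pathway genes were read, and the median of each list changed its sign under at least 1 alternative. For the receptor and hypoxia lists this was mean minus background signals, under which the median of all genes was also higher, at 0.05 against 0.01. Among receptors of these cytokines, 16 of 20 were well above background on both arrays, 6 higher and 10 lower, none 2-fold apart, with a median of -0.06. Tnfrsf1b, the TNF receptor of leukocytes, read 3690 after heat and 3155 in the control at its brightest probe, with a mean difference of 0.24 over its 2 probes. The broadly expressed TNF receptor Tnfrsf1a differed by 0.09. Flt1, a VEGF-A receptor, read 32.9 and 50.6, a difference of -0.58 from 1 of its 4 probes, which was -0.23 with normexp and quantile normalization. Il12rb2, a chain of the IL-12 receptor, read 50.7 and 68.3, a difference of -0.39, which was -0.18 there. Tgfbr2, the TGF-β binding kinase, read 5744 and 6658, a difference of -0.17, which was -0.067 there. Il10ra differed by 0.17 and Il10rb by -0.05, and Il6ra by -0.15 and Il6st (gp130) by 0.09. The receptors on neither array were Il1r1 and Il1r2, which bind IL-1, the oncostatin receptor Osmr and the co-receptor Tgfbr3, named because they are the 4 missing.

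Signal transducers and feedback inhibitors were all read, 26 of 26, with 12 higher, 14 lower, none 2-fold apart and a median of -0.01. Smad6, an inhibitory Smad, read 112 after heat and 194 in the control, a difference of -0.76. Smad7, the inhibitory Smad of TGF-β signalling, read 65.2 and 110, a difference of -0.72 from 1 of its 2 probes. Socs1, which blocks Jak kinases, read 177 and 266, a difference of -0.55. Smad3, which carries the TGF-β signal to the nucleus, read 631 and 819 at its brightest probe, a mean difference of -0.37 over its 2 probes. These 4 were named because their absolute differences were the largest of the list, and all were lower after heat in every alternative that measured them. Under normexp and quantile normalization Smad6 was at -0.50, Smad7 at -0.39, Socs1 at -0.42 and Smad3 at -0.28. Of the 12 higher genes, Ski differed by 0.37, Stat3 by 0.32 and Smad4 by 0.15, so the list had no common direction.

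Of the proteins that release or activate cytokines, 15 of 17 were read on both arrays, 9 higher and 6 lower, with a median of 0.05. Lrrc32, which holds latent TGF-β at the cell surface, read 77.1 after heat and 165 in the control, a difference of -1.06 from 1 probe. Lrrc32 was the only gene of the 6 pathway lists at least 2-fold apart, where 0.663% of all genes measured were. Under normexp and quantile normalization it was -0.64, below that fold. Ltbp3, a latent TGF-β binding protein, differed by 0.31 over 2 probes although its brighter probe read 1464 and 1518, and its sign turned in 2 of 12 alternatives. Itgav, the integrin chain that helps to activate TGF-β, read 8364 and 10697 at its brightest probe, with a mean difference of -0.31 over its 4 probes. Thbs1 differed by -0.14, with its sign turned in 1 of 11 alternatives.

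All 15 regulators of cytokine mRNA were read, 10 higher and 5 lower, none 2-fold apart, with a median of 0.03. Zc3h12d, a relative of the nuclease Regnase-1, read 932 after heat and 638 in the control at its brightest probe, with a mean difference of 0.48 over its 2 probes. Hnrnpd (AUF1), which binds AU-rich messages, read 8182 and 13520 at its brightest probe, with a mean difference of -0.47 over its 2 probes. Zc3h12a (Regnase-1), the nuclease that degrades Il6 and Il12b messages, differed by 0.23, although its brighter probe read 199 and 213, and its sign turned in 1 of 11 alternatives. Elavl1 (HuR), which stabilises such messages, read 16258 and 18983, a difference of -0.18. The decay factor Zfp36 (tristetraprolin) differed by 0.06.

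In the hypoxia pathway, the textbook inducer of Vegfa, 14 of 15 genes were read, 5 higher and 9 lower, none 2-fold apart, with a median of -0.03. Hif1an, which hydroxylates and restrains the hypoxia factor, differed by 0.51 as a mean over 2 probes that disagreed. Of these, 1 read 227 after heat and 89.2 in the control, beyond 2-fold, and the other was lower after heat. The mean ranged from -0.36 to 0.54 over alternatives. Ndrg1 read 4140 after heat and 3652 in the control, a difference of 0.22, and Ankrd37 read 1053 and 937, a difference of 0.21. Egln3, an oxygen-sensing hydroxylase, read 95.6 and 112, a difference of -0.19, which was -0.11 with normexp and quantile normalization. Hif1a differed by -0.06.

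Of 46 other cytokines and growth factors, 19 were read on both arrays, 8 higher and 11 lower, none 2-fold apart, with a median of -0.08 that was 0.06 over the brighter 50% of probes. Ltb, a membrane partner of lymphotoxin, read 126 after heat and 80.6 in the control, a difference of 0.69, which was 0.36 with normexp and quantile normalization. Il24, an IL-10 family cytokine, read 26.2 and 41.2 at 1 of its 3 probes, a difference of -0.61, which was -0.23 there. The Il24 signal after heat lay near the lowest readable one of that array, 24.9. Hbegf, an EGF receptor ligand, read 95.5 and 139 at 1 of its 2 probes, a difference of -0.50, with its sign turned in 1 of 11 alternatives. Pgf, placental growth factor and a relative of VEGF-A, read 337 and 461, a difference of -0.41.

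**Figure D5:**
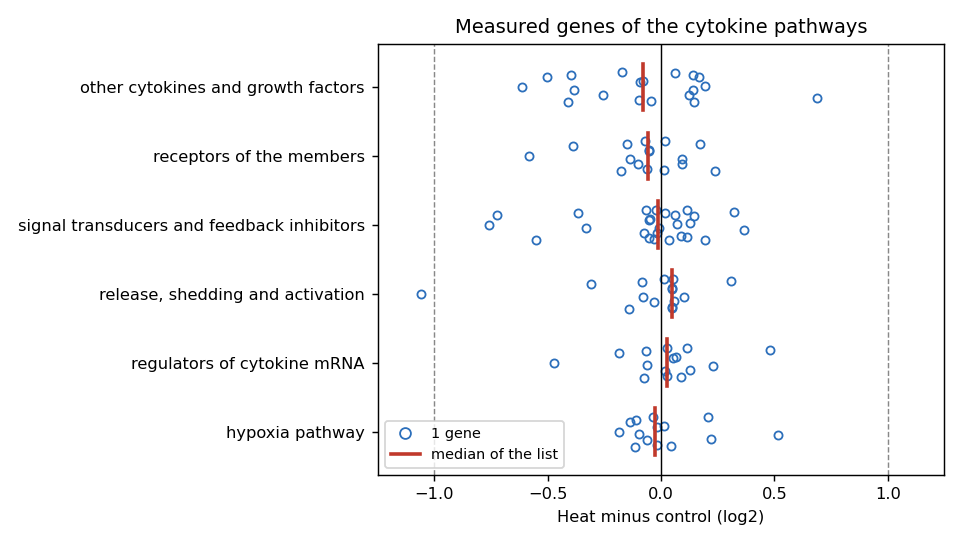
Heat minus control (log2) of each gene read on both arrays in the 6 pathway lists, 1 circle per gene, with a bar at the list's median and dashed lines at 2-fold. The medians lie between -0.08 and 0.05, and Lrrc32 at -1.06 is the circle beyond the dashed line.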

How the data were processed

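Per the file headers, both array images went through Agilent Feature Extraction 10.7.1.1, while the submitters' processing notes name version 9.1. The deposited scanner files hold linear intensity values per spot, namely a processed signal that the software corrected for background, a mean signal and a local background, together with the software's error and flags. The authors' deposited value table holds log2 values, which lay within a median of 0.000516 and 0.000538 of quantile-normalized log2 processed signals on the heat and control arrays, with a median of 5.26 in each column.

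Spots that the software called outliers were dropped (168 after heat and 149 in the control), and the log2 values of a probe's spots were averaged. Each member probe had 1 spot. The flag for well above background had to be set at over 0.5 of a probe's spots. The main value is log2 processed signal minus the array's 75th percentile, and for a gene the differences of all probes that passed this on each array were averaged. A symbol in the files named the gene, and the transcript record gave the same 17 cytokine probes. The software errors of both arrays were propagated to the log2 difference. For a mean over probes they were combined as if independent between probes, which was not tested. Some probe sequences and 1 marker gene are not reported here.

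The cytokines and gene lists were chosen with earlier results of these data known. The text names every cytokine probe, up to 4 measured genes per list with the largest absolute difference, marker genes by count with up to 3 examples, and a few other genes of the lists outside this rule, such as Zfp36 and Hif1a, which were chosen after their values were seen. Alternatives covered scaling, background correction (normexp, offset 50), the authors' table, probe choice, filters and thresholds. The 2-fold count over genes was tested on simulated data in which every planted change was larger than 2-fold. That test does not bear on differences as small as those of the cytokines. The tools were Python 3.11.15 with pandas 2.3.3, numpy 2.4.6 and matplotlib 3.10.9, and R 4.3.3 with limma 3.58.1 and data.table (version 1.17.8).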

Additional observations from a re-analysis of the deposited data

How the results depend on the processing

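No paired analysis was possible because each group had 1 array, and for the same reason no replicate could be left out. Without scaling between arrays, which moves every gene by the same 0.04, 2 cytokines were higher after heat and 4 lower. Without a filter on dim probes 6 of the 9 were lower, and over the brighter 50% of detected probes, which leaves out Il10 and Osm, 1 of 4 was lower. Of all genes, 39 were at least 2-fold higher and 84 at least 2-fold lower. These became 12 and 24 with normexp and the 75th percentile, 11 and 27 with normexp and quantile normalization, 727 and 1008 without the filter, and 3 and 14 over the brighter 50% of probes. At 4-fold there were 5 higher and 6 lower, and at 1.5-fold 224 and 329. The other scalings, mean minus background signals, the authors' table, the brightest probe and outlier spots kept all left both counts within 1.5 times. The median of all genes moved to -0.10 without the filter, which also left 35.9% of genes higher. Signs turned for Osm in 5 settings, for Tgfb1 in 2 and for Il10 in 1, with the uniform shift of the unscaled values among those of Osm and Tgfb1. Signal over background limits Il10 and Vegfa probe 2, and it leaves Il1a, Il6 and Il12b unread.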
